A study of Mus musculus with 8 samples.

Results

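Mitogen-activated protein kinases (MAPKs) carry signals from growth factor and danger receptors to the nucleus, and they switch on the genes of their own inhibitors. These inhibitors include the dual-specificity phosphatases (*Dusp* genes), which remove phosphate from the kinases ERK, p38 and JNK, and the Sprouty and Spred proteins, which act earlier on the path from receptors to Ras and RAF. In macrophages, *Dusp1* is best known for limiting p38 activity and cytokine production after Toll-like receptor stimulation. The genes described here are *Dusp1*, *Dusp2*, *Dusp4*, *Dusp5*, *Dusp6*, *Dusp10*, *Dusp16*, *Spry1*, *Spry2* and *Spred1*, chosen by name. All 10 were found in the deposited table of 55401 genes, and all 10 passed the filter on low values, which left 15202 genes for testing.

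RNA was measured in F4/80-selected hepatic macrophages from wild-type (WT) mice on a standard diet (normal livers) and from MC4R-KO mice, made to be deficient in the melanocortin 4 receptor, on a Western diet for 6 to 10 wk (steatotic livers). All mice had the C57BL/6J background. The cells were cultured on collagen-coated plates and received vehicle (Veh) or cholesterol crystals (CC, 500 μg/ml) for 24 h, and 2 libraries were made for each of the 4 groups. Genotype and diet changed together between the livers and cannot be told apart. The sources used here give neither the age of the mice for this culture nor whether libraries came from separate mice, so p-values measure the spread between these libraries, which may be technical.

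*Mc4r* was listed at 0 under the label normal in all 4 libraries but had from 22 to 72 counts in those under the label steatotic. These counts go against the labels unless the disrupted gene is still transcribed, which the sources used here do not say, and every direction between the livers rests on the labels. *Spp1*, which encodes osteopontin and is known to be raised in macrophages of steatotic livers, ran the way the labels say. It was named after its values were seen, so it cannot test the labels and does not settle the conflict with *Mc4r*. It was at 9.94 and 12.9 CPM with Veh and at 19.8 and 19.9 CPM with CC under the label normal, and at 57.6 and 50.9 CPM and at 339.7 and 316.2 CPM under the label steatotic. The libraries held from 58668655 to 74529462 counts in all. Levels are given as CPM, which scales counts to a common library total, and 3 sequenced fragments correspond to between 0.161 and 0.205 CPM. This floor accounts for counting error alone. The 10 macrophage markers, which include *Adgre1* and *Cd68*, were all tested, and their summed level lay between 17620 and 25860 CPM. It was lower with CC, from 18760 to 18880 CPM with the label normal and from 17620 to 19080 CPM with the label steatotic, against at least 24570 CPM with Veh. With CC, 9 of the 10 markers fell under the label normal, and 8 fell and 1 rose under the label steatotic. *Adgre1* was among those that fell under both, whereas *Cd68* had a log2 fold change with CC of 0.05 with the label normal and rose by 0.17 with the label steatotic (edgeR adjusted p = 0.0147). Of 5 resident Kupffer cell markers, 3 fell with CC under the label normal, and 4 fell and 1 rose under the label steatotic. The hepatocyte markers summed to between 155.3 and 162.5 CPM with Veh and between 121.2 and 134.8 CPM with CC under the label normal. Under the label steatotic they went from between 105.6 and 120 CPM to between 48.6 and 55.3 CPM. In bulk RNA, fewer cells of a type and less RNA per cell cannot be told apart.

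Most of the MAPK feedback genes rose when CC were added. In the libraries labelled normal, 6 of the 10 genes were higher with CC (edgeR quasi-likelihood test, adjusted p under 0.05 by Benjamini-Hochberg over all tested genes), against 6.27% of all tested genes, and 0 were lower, against 5.54% of all. In the libraries labelled steatotic, 7 were higher, against 12.0% of all tested genes, and 0 were lower, against 10.9%. At an unadjusted p under 0.05 and by DESeq2, the counts of lower genes were also 0 in both. The median log2 fold change of the 10 genes was 0.70 with the label normal and 1.08 with the label steatotic, while the median of all tested genes was 0.00 in each. The genes that rose under both labels were *Dusp1*, *Dusp4*, *Dusp5*, *Dusp6*, *Dusp10* and *Spry2*, and *Spred1* was added with the label steatotic. *Dusp2*, *Dusp16* and *Spry1* did not pass the test for CC under either label.

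**Figure D1:**
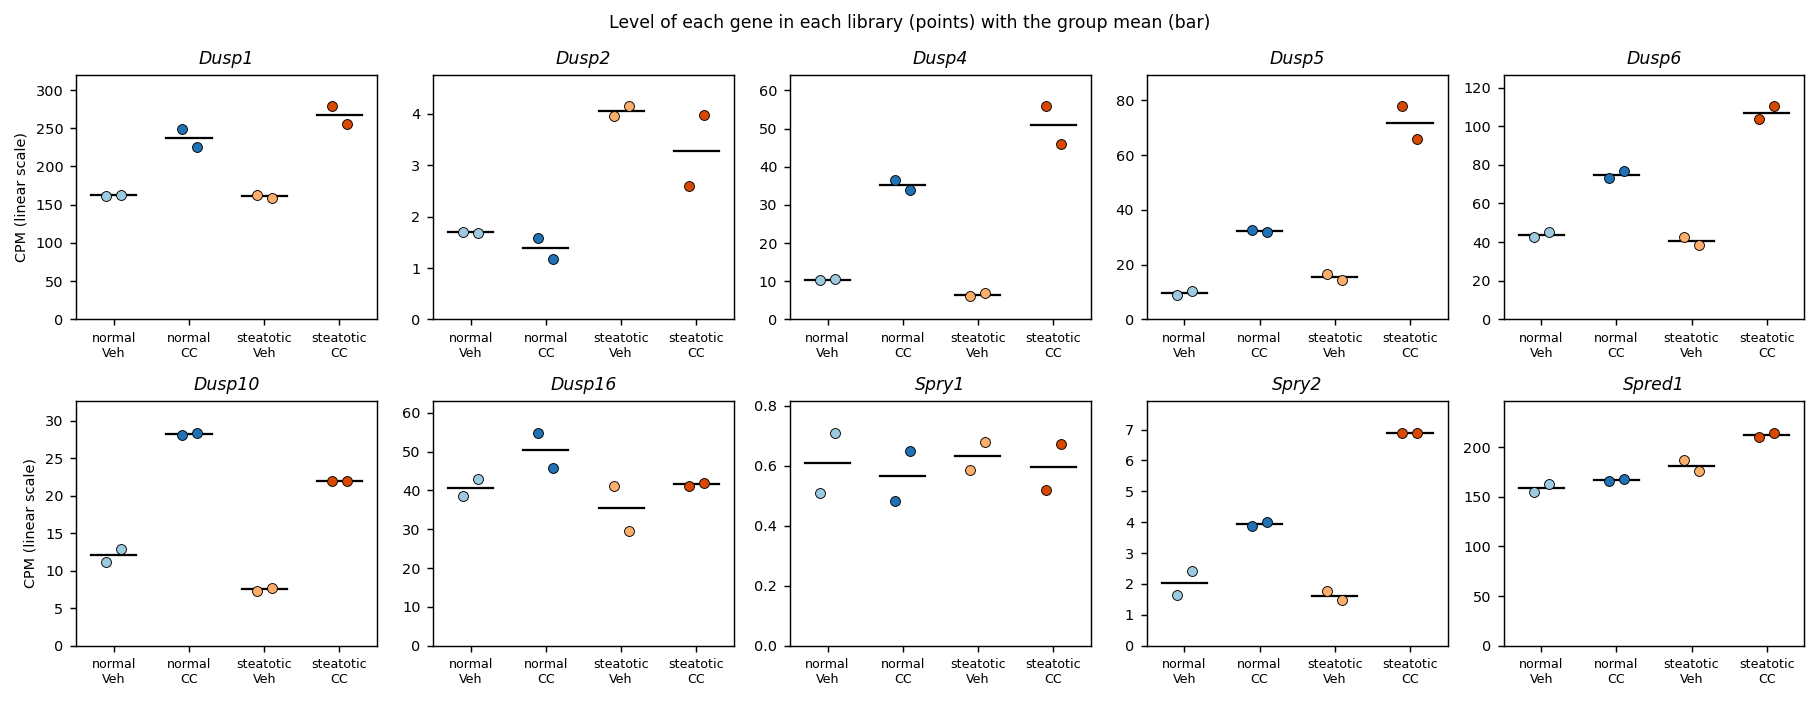
Level of each of the 10 genes in CPM (linear axis from 0), with 1 point per library, a bar for the mean of the 2 libraries and 1 column for each group. Both CC libraries lie above both Veh libraries of the same label for *Dusp1*, *Dusp4*, *Dusp5*, *Dusp6*, *Dusp10*, *Spry2* and *Spred1*, whereas the groups of *Spry1* overlap.

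The nuclear phosphatases *Dusp1*, *Dusp2*, *Dusp4* and *Dusp5* are immediate early or delayed early genes, and *Dusp5* acts on ERK alone. *Dusp1* (ENSMUSG00000024190.7) lies on the minus strand of chromosome 17 between 26505590 and 26562128 (GRCm38, the mm10 build). With the label normal, its level was 161.4 and 163.1 CPM at Veh and 248.8 and 225.5 CPM with CC. In the libraries labelled steatotic it was 162.8 and 159.0 CPM with Veh and 278.5 and 255.7 CPM with CC. The Veh libraries of both labels were at the same level, and each CC library was above all 4 of them. The log2 fold change of *Dusp1* with CC was 0.58 (SE 0.0605, edgeR adjusted p = 0.000897) with the label normal and 0.75 (SE 0.0606, edgeR adjusted p = 0.000106) with the label steatotic.

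*Dusp5* (ENSMUSG00000034765.6, chromosome 19 from 53529109 to 53542431, plus strand) responded more strongly. With the label normal it was at 9.05 and 10.4 CPM with Veh and at 32.6 and 31.8 CPM with CC. Its levels under the label steatotic were 16.5 and 14.4 CPM with Veh and 77.8 and 66.0 CPM with CC. No groups overlapped, and the libraries labelled steatotic with CC were the highest. The level with CC was 3.32 times that with Veh under the label normal and 4.66 times under the label steatotic, or 1.77 on the log2 scale (SE of 0.116, edgeR adjusted p = 0.000115) and 2.24 (SE of 0.116, edgeR adjusted p = 1.29e-05). An antisense gene, AC137853.2, shares 547 exonic bases with *Dusp5*. The counting is not stated to use strand, so reads of the pair cannot be told apart there.

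*Dusp4* (ENSMUSG00000031530.6, chromosome 8 from 34807297 to 34819894, plus strand) had the largest log2 fold change with CC among the 10 genes under the label steatotic, and under the label normal it differed from *Dusp5* by less than the SE of either. In the libraries labelled normal it went from 10.2 and 10.5 CPM with Veh to 36.4 and 33.9 CPM with CC. In those labelled steatotic it went from 6.05 and 6.84 CPM to 55.8 and 45.9 CPM. The libraries labelled steatotic were thus the lowest with Veh and the highest with CC, without overlap. The ratio of the means was 3.39 with the label normal and 7.90 with the label steatotic, and on the log2 scale these were 1.80 (SE of 0.114, edgeR adjusted p = 0.000107) and 3.0 (SE of 0.119, edgeR adjusted p = 3.84e-06). The stellate cell marker *Dcn*, decorin, moved in the same direction with CC, from between 2.07 and 2.14 CPM to between 5.69 and 7.0 CPM with the label normal and from between 17.4 and 20.8 CPM to between 108 and 135 CPM with the label steatotic. The other seven stellate markers were below the filter. *Col1a1*, *Col1a2* and *Col3a1* were at no more than 0.395 CPM in any library, and *Col1a1* went the other way, from between 8 and 20 counts with Veh to between 0 and 4 with CC. The part of such cells in the values of the 10 genes was not tested.

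*Dusp2* (ENSMUSG00000027368.6, chromosome 2 from 127336159 to 127338376, plus strand) is a phosphatase of activated leukocytes and was weakly expressed. With the label normal its level was 1.70 and 1.69 CPM with Veh and 1.59 and 1.18 CPM with CC. Under the label steatotic it was 3.95 and 4.14 CPM with Veh and 2.59 and 3.97 CPM with CC. One CC library labelled steatotic was at the Veh level and the other was below it, and all 4 libraries labelled steatotic were above the 4 labelled normal. Log2 fold changes with CC were -0.26 (95% interval from -0.86 to 0.35) with the label normal and -0.28 (from -0.86 to 0.29) with the label steatotic, which did not pass the test.

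The sequences just before the starts of 4 of these genes are shown because the study is about Egr1 and TFE3, whose binding motifs can be looked for in them. RefSeq promoters of GRCm38.p6 were matched by symbol for 9 of the 10 genes, with *Dusp4* missing. In the 250 bases before the start, 6 motifs were searched on both strands. They were the EGR motif GCGNGGGCG, the AP-1 motif TGANTCA, the CRE motif TGACGTCA, the E-box CACGTG bound by TFE3, and the CArG and NF-κB motifs. The stretches from 250 to 51 bases before the start are printed on the strand of the gene, with matches in capitals. They lie at chr17:26508523-26508722 (*Dusp1*, minus strand), chr19:53528895-53529094 (*Dusp5*, plus strand), chr10:99262981-99263180 (*Dusp6*, plus strand) and chr2:127335909-127336108 (*Dusp2*, plus strand). The stretch of *Dusp5* lies in an exon of the antisense gene AC137853.2, and that of *Dusp1* in no exon, inside the longer span that GENCODE gives this gene.
Dusp1: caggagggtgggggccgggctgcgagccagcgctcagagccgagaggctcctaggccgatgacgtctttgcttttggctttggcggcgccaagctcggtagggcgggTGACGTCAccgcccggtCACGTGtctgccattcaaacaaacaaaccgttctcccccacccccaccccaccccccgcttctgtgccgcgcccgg
Dusp5: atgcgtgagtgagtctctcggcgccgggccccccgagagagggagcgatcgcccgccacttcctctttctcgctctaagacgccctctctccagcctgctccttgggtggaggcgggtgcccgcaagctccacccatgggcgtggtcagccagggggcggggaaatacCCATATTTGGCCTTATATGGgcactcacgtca
Dusp6: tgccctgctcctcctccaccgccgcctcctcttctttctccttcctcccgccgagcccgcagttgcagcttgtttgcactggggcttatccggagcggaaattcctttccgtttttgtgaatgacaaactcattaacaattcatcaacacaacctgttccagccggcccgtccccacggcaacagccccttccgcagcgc
Dusp2: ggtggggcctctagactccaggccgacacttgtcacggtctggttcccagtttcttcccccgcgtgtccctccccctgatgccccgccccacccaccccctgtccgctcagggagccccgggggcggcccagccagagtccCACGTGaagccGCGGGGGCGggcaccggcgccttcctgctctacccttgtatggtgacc

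*Dusp1* held a CRE 143 to 136 bases and an E-box 126 to 121 bases before its start. *Dusp5* held 2 CArG boxes side by side, from 82 to 73 and from 72 to 63 bases before its start. *Dusp2*, which did not pass the test for CC, held an E-box and an EGR motif, and *Dusp16* held an EGR motif on the other strand. No letters of these motifs were found in the windows of *Dusp6*, *Dusp10*, *Spry1*, *Spry2* and *Spred1*. Among all 32851 promoters of the same length, 4.70% held the EGR motif (2 of the 9 genes), 1.55% the CRE (1 gene), 6.02% the E-box (2 genes) and 1.47% a CArG box (1 gene). The AP-1 motif, in 6.75% of all promoters, and the NF-κB motif, in 5.00%, were found in 0 of the 9. A match describes letters, not binding.

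*Dusp6* (ENSMUSG00000019960.8, chromosome 10 from 99263231 to 99267489, plus strand) encodes the cytoplasmic phosphatase of ERK and is widely used as a readout of ERK activity. With the label normal it was at 42.4 and 45.0 CPM with Veh and at 73.2 and 76.7 CPM with CC. Among those labelled steatotic it went from 42.4 and 38.7 CPM to 103.7 and 110.2 CPM. The Veh groups of the 2 labels overlapped, and the CC groups did not overlap. On the log2 scale, *Dusp6* rose with CC by 0.81 (SE of 0.0654, edgeR adjusted p = 0.000286) and by 1.42 (SE of 0.0661, edgeR adjusted p = 7.82e-06).

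*Dusp10* and *Dusp16* encode phosphatases that prefer p38 and JNK over ERK. *Dusp10* (ENSMUSG00000039384.8, chromosome 1 from 184013302 to 184075636, plus strand) went under the label normal from 11.2 and 12.9 CPM with Veh to 28.1 and 28.4 CPM with CC. Under the label steatotic it went from 7.32 and 7.69 CPM to 22.0 CPM in each of the 2 CC libraries. The libraries labelled steatotic were lower than those labelled normal with the same treatment. It rose with CC by 1.27 on the log2 scale (SE of 0.0903, edgeR adjusted p = 0.000161) and by 1.57 (SE of 0.0916, edgeR adjusted p = 2.21e-05). *Dusp16* (ENSMUSG00000030203.17, chromosome 6 from 134715468 to 134792625, minus strand) was at 38.5 and 42.9 CPM with Veh and 54.9 and 45.9 CPM with CC under the label normal. Under the label steatotic it was at 41.3 and 29.4 CPM with Veh and 41.2 and 41.9 CPM with CC. Its groups overlapped under the label steatotic. The log2 fold change with CC was 0.34 (95% interval from -0.07 to 0.75) with the label normal and 0.25 (from -0.16 to 0.66) with the label steatotic. Without replicate 1 of steatotic with Veh, the latter was 0.51 (edgeR adjusted p = 0.0388).

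Sprouty 2 restrains signalling from receptor tyrosine kinases to Ras. *Spry2* (ENSMUSG00000022114.5, chromosome 14 from 105891947 to 105896819, minus strand) was weakly expressed and went under the label normal from 1.64 and 2.42 CPM with Veh to 3.89 and 4.01 CPM with CC. Under the label steatotic it went from 1.76 and 1.47 CPM to 6.88 and 6.90 CPM. The CC libraries were above the Veh libraries in each case, and those labelled steatotic were the highest. It rose by 1.00 on the log2 scale (SE of 0.213, edgeR adjusted p = 0.0226) and by 2.11 (SE of 0.217, edgeR adjusted p = 0.000364). With the label normal, the adjusted p (edgeR) was 0.0945 without replicate 1 of normal with Veh, 0.0819 and 0.0868 without replicate 1 or 2 of normal with CC, and 0.0517 when only the 4 libraries of this comparison were fitted.

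*Spry1* (ENSMUSG00000037211.12, chromosome 3 from 37639947 to 37644598, plus strand), its close relative, stayed between 0.481 and 0.710 CPM in the 8 libraries, or between 30 and 50 counts. All of its groups overlapped, and its log2 fold changes with CC were -0.08 (95% interval from -1.03 to 0.87) and -0.07 (from -1.01 to 0.87), so moderate changes of *Spry1* were not detectable at this depth. An unclassified gene on the other strand, Gm42922, shares 710 exonic bases with it and had at most 6 counts.

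*Spred1* (ENSMUSG00000027351.14, chromosome 2 from 117121374 to 117182279, plus strand) encodes a membrane protein that brings the Ras inhibitor neurofibromin to Ras. Under the label normal it was at 155.1 and 162.8 CPM with Veh and at 166.0 and 168.1 CPM with CC. Under the label steatotic it was at 187.1 and 175.5 CPM with Veh and at 210.2 and 214.5 CPM with CC. The libraries labelled steatotic were above those labelled normal with both treatments. The log2 fold change with CC was 0.11 (SE 0.0465, edgeR adjusted p = 0.201) with the label normal and 0.24 (SE 0.0465, edgeR adjusted p = 0.00756) with the label steatotic. Without replicate 2 of steatotic with Veh, the latter had an adjusted p of 0.0559 (edgeR).

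**Figure D2:**
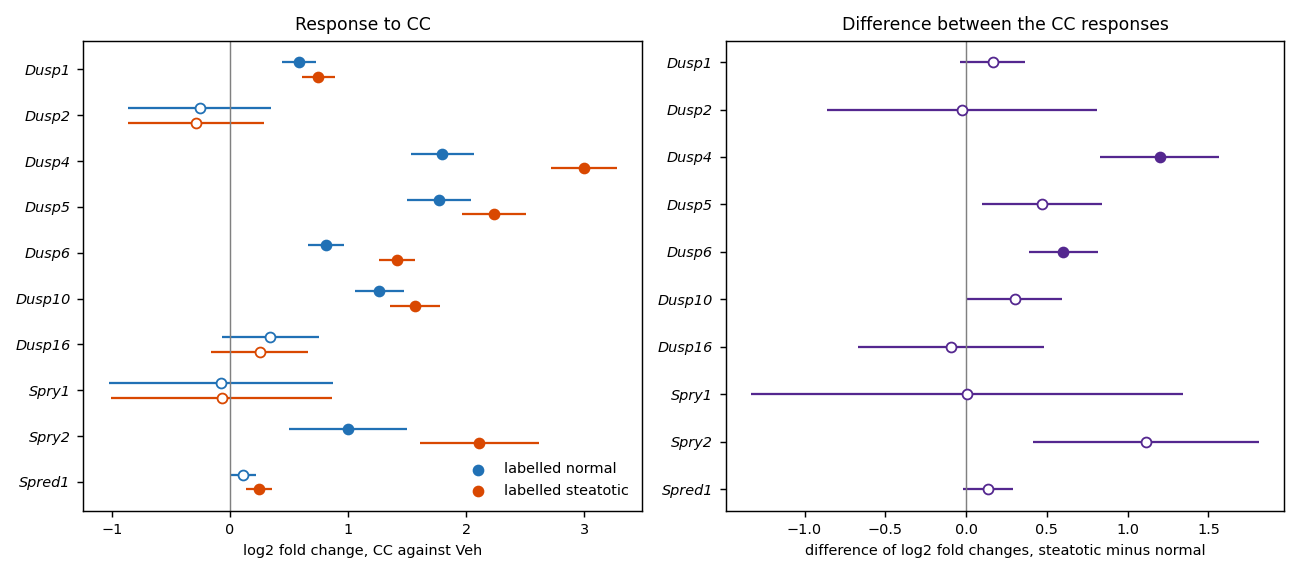
Log2 fold changes of the 10 genes with CC against Veh (left, blue for the label normal and orange for the label steatotic) and the difference between these responses (right), with 95% intervals as lines and filled points where the edgeR adjusted p was under 0.05. The responses of *Dusp4* and *Dusp6* differed between the labels, and the intervals of *Spry1* span more than 1 on either side of 0 in the right panel.

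Whether the response to CC differed between the labels was tested as the difference of the log2 fold changes. The response was larger with the label steatotic for 2 of the 10 genes, against 1.95% of all tested genes, and smaller for 0, against 1.27%. At an unadjusted p under 0.05, 5 of the 10 genes had a larger response, against 7.94% of all tested genes, and 0 a smaller one, against 6.26%, and DESeq2 also gave 0 smaller. *Dusp4* responded more by 1.20 on the log2 scale (SE of 0.158, edgeR adjusted p = 0.00856). *Dusp6* responded more by 0.60 (SE 0.0920, edgeR adjusted p = 0.0149). Without replicate 2 of normal with Veh the difference for *Dusp6* was 0.55 (edgeR adjusted p = 0.0533), and without replicate 1 of normal with CC it was 0.57 (edgeR adjusted p = 0.0618), so that 1 gene was left in each case. The 6 neutrophil markers summed to between 137.6 and 140.3 CPM with Veh and between 149.9 and 150.5 CPM with CC under the label normal, and went from between 249.1 and 258.4 CPM to between 384.4 and 390.2 CPM under the label steatotic. Of the 3 tested, *Mmp8* rose by 0.68 and 1.35 on the log2 scale (edgeR adjusted p = 0.000182 and 3.16e-06) and *S100a8* by 0.66 and 1.97 (edgeR adjusted p = 0.0145 and 4.02e-05), while *Csf3r* fell by 0.39 and by 0.26 (edgeR adjusted p = 0.00122 and 0.00422). The responses of *Mmp8* and *S100a8* were larger under the label steatotic. *Ly6g*, which defines neutrophils, was at 0 in all libraries, and *S100a9* and *Retnlg* reached at most 0.282 and 0.0586 CPM in any library. The part of neutrophils in the responses was not tested.

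For the other eight genes no difference between the responses passed the test. *Spry2* had a difference of 1.11 (95% interval from 0.42 to 1.81, edgeR adjusted p = 0.115), close in size to that of *Dusp4* but with a wider interval. *Dusp5* had a difference of 0.47 (from 0.10 to 0.84, edgeR adjusted p = 0.218) and *Dusp10* of 0.30 (from 0.01 to 0.60, edgeR adjusted p = 0.342). For *Dusp1* and *Spred1* the differences were 0.16 and 0.14, with upper bounds of 0.36 and 0.29.

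Between the labels at Veh, 5 of the 10 genes passed the test. With the label steatotic 3 were higher, against 16.4% of all tested genes, and 2 were lower, against 14.3%. *Dusp2* was higher by 1.30 on the log2 scale (SE of 0.254, edgeR adjusted p = 0.00660), *Dusp5* by 0.71 (SE 0.114, edgeR adjusted p = 0.00254) and *Spred1* by 0.24 (SE 0.0465, edgeR adjusted p = 0.0070, or 0.0502 without replicate 1 of steatotic with Veh). *Dusp4* and *Dusp10* were lower by nearly the same amount, at -0.64 on the log2 scale (SE of 0.114 and 0.0907, edgeR adjusted p = 0.00417 and 0.00142). *Dusp1* and *Dusp6* had log2 fold changes of 0.03 (95% interval from -0.11 to 0.17) and -0.06 (from -0.21 to 0.09). The 8 markers of T and natural killer cells summed to between 1.22 and 1.24 CPM with the label normal and to between 15.5 and 18.1 CPM with the label steatotic at Veh, and 7 of them were higher there. Of 7 tested endothelial markers 5 were higher and 1 was lower (summed to between 317.5 and 348.5 CPM, against between 171.0 and 179.2 CPM), and of 8 tested hepatocyte markers 6 were lower (median log2 fold change -3.86). Of the 10 macrophage markers, 7 were higher and 2 lower with the label steatotic, and of 5 resident Kupffer cell markers 3 were higher and 2 lower. The part of any of these cells in the levels of the 10 genes was not tested.

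With CC, 7 of the 10 genes were higher with the label steatotic, against 15.9% of all tested genes, and 1 was lower, against 12.9%. The same libraries enter the comparisons of CC with Veh, so these counts are not independent of those above. Of the 10 macrophage markers, 7 were higher and 2 lower with the label steatotic, and of 5 resident Kupffer cell markers 3 were higher and 2 lower. Markers of other cells also differed between the labels with CC. All 8 T and natural killer cell markers were higher with the label steatotic (summed to between 13.8 and 14.3 CPM, against between 0.716 and 0.929 CPM), as were 4 of 7 tested sinusoidal endothelial markers (between 291.0 and 303.3 CPM, against between 201.3 and 202.7 CPM). Of 8 tested hepatocyte markers, 7 were lower (between 48.6 and 55.3 CPM, against between 121.2 and 134.8 CPM). *Trf*, transferrin, made up most of the sum with the label steatotic and had a log2 fold change of -0.51, whereas *Alb*, albumin, was at 1.86 and 2.31 CPM against 41.0 and 47.7 CPM. Their part in the differences of the 10 genes was not tested. *Dusp4*, lower at Veh, was higher with CC by 0.56 (SE 0.110, edgeR adjusted p = 0.00748). *Dusp5* was higher by 1.18 (SE 0.112, edgeR adjusted p = 0.000204), *Dusp6* by 0.54 (SE 0.0649, edgeR adjusted p = 0.000712) and *Spred1* by 0.37 (SE 0.0466, edgeR adjusted p = 0.000876). *Dusp10* was the lower gene, at -0.34 on the log2 scale (SE of 0.0886, edgeR adjusted p = 0.0254), and its adjusted p lay between 0.0917 and 0.0994 (edgeR) when any 1 of the 4 libraries with CC was left out.

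The other calls with CC were less firm. *Spry2* was higher by 0.83 (edgeR adjusted p = 0.0210), with an adjusted p from 0.0734 to 0.0917 when any 1 of the 4 CC libraries was left out. *Dusp2* was higher by 1.27 (edgeR adjusted p = 0.00846), or 1.08 (edgeR adjusted p = 0.0524) without replicate 2 of normal with CC. *Dusp1* was higher by 0.20 (edgeR adjusted p = 0.0446), and lost the call in 8 alternatives, with 0.13 (edgeR adjusted p = 0.221) without replicate 2 of normal with CC, 0.13 (0.2045) without replicate 1 of steatotic with CC and 0.17 (0.0686) when libraries were scaled by size only. Leaving out a Veh library gave an adjusted p for *Dusp1* of 0.0630 and 0.0689 without replicate 1 or 2 of normal and 0.0722 and 0.0657 without replicate 1 or 2 of steatotic, and the 4 CC libraries alone gave 0.101 (all edgeR). Without replicate 2 of normal with CC, 4 genes were higher in place of 7.

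**Figure D3:**
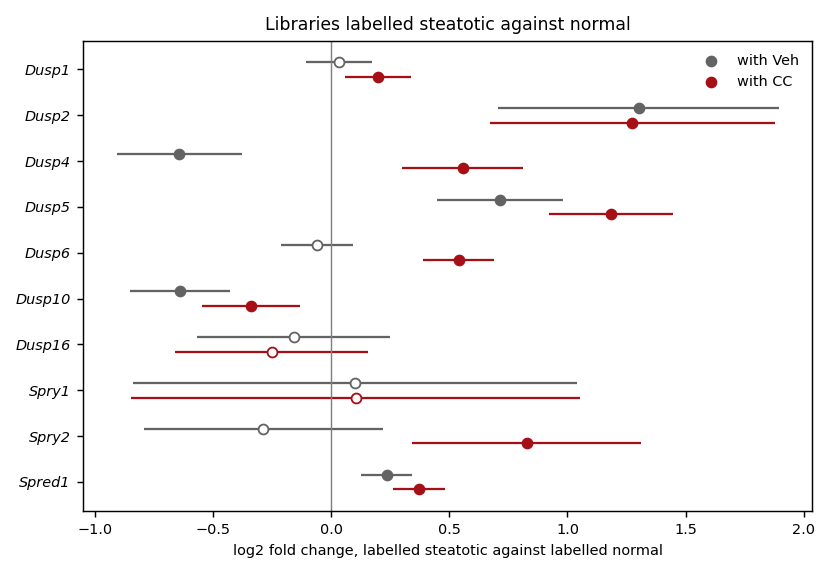
Log2 fold changes of the 10 genes in the libraries labelled steatotic against those labelled normal, with Veh (grey) and with CC (red), as points with 95% intervals, filled where the edgeR adjusted p was under 0.05. *Dusp4* is below 0 with Veh (-0.64) and above 0 with CC (0.56), whereas *Dusp2* and *Dusp5* are above 0 and *Dusp10* is below 0 with both.

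Levels of different genes were compared per kilobase of merged exons. *Dusp1* was the highest of the 10 genes in all 4 groups, at 49.0 ± 0.357 CPM per kilobase (SD, n = 2) in normal with Veh and 80.7 ± 4.86 in steatotic with CC. *Spred1* was second in normal with Veh at 23.4 ± 0.803 CPM per kilobase and *Dusp6* came after it at 13.9 ± 0.574. In steatotic with CC *Dusp6* was second at 34.2 ± 1.47, followed by *Spred1* at 31.3 ± 0.446 and *Dusp5* at 29.1 ± 3.37, of which the latter pair differed by less than the spread of *Dusp5*. *Dusp16*, *Dusp10*, *Dusp5* and *Dusp4* were between 3.79 and 5.22 CPM per kilobase in normal with Veh, where *Dusp10*, *Dusp5* and *Dusp4* did not differ beyond their spread. In normal with CC, *Spred1* and *Dusp6* were at 24.6 ± 0.221 and 23.9 ± 0.786 CPM per kilobase and *Dusp5* and *Dusp4* at 13.0 ± 0.247 and 12.8 ± 0.645, and neither pair differed beyond its spread. *Dusp10* followed at 9.29 ± 0.0686 and *Dusp16* at 6.46 ± 0.817. In steatotic with Veh, *Dusp5* came after *Dusp1*, *Spred1* and *Dusp6* at 6.24 ± 0.613 CPM per kilobase. *Dusp16* (4.53 ± 1.07), *Dusp10* (2.47 ± 0.0869), *Dusp4* (2.35 ± 0.204) and *Dusp2* (2.02 ± 0.0682) came next, with *Dusp10* and *Dusp4* within their spread. *Spry2*, *Dusp2* and *Spry1* were the lowest in normal with Veh, at 0.973 ± 0.262, 0.846 ± 0.00303 and 0.210 ± 0.0486 CPM per kilobase, with *Spry2* and *Dusp2* within the spread of *Spry2*.

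The summed level of the 7 phosphatase genes was 79.2 and 82.2 CPM per kilobase in normal with Veh and 81.3 and 77.1 in steatotic with Veh. With CC it was 142.1 and 133.6 with the label normal and 182.8 and 170.4 with the label steatotic. The Veh libraries of both labels were at the same sum, while the CC groups did not overlap. *Dusp1* made up between 59.9% and 62.3% of the sum with Veh, between 50.97% and 52.9% in normal with CC and between 45.3% and 46.0% in steatotic with CC. *Dusp5* went from between 4.62% and 5.09% to between 9.29% and 9.61% with the label normal and from between 7.53% and 8.21% to between 15.7% and 17.2% with the label steatotic. *Dusp6* had 17.1% and 17.5% with Veh and 16.45% and 18.3% with CC under the label normal. Under the label steatotic it went from 16.7% and 16.0% to 18.1% and 20.6%.

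**Figure D4:**
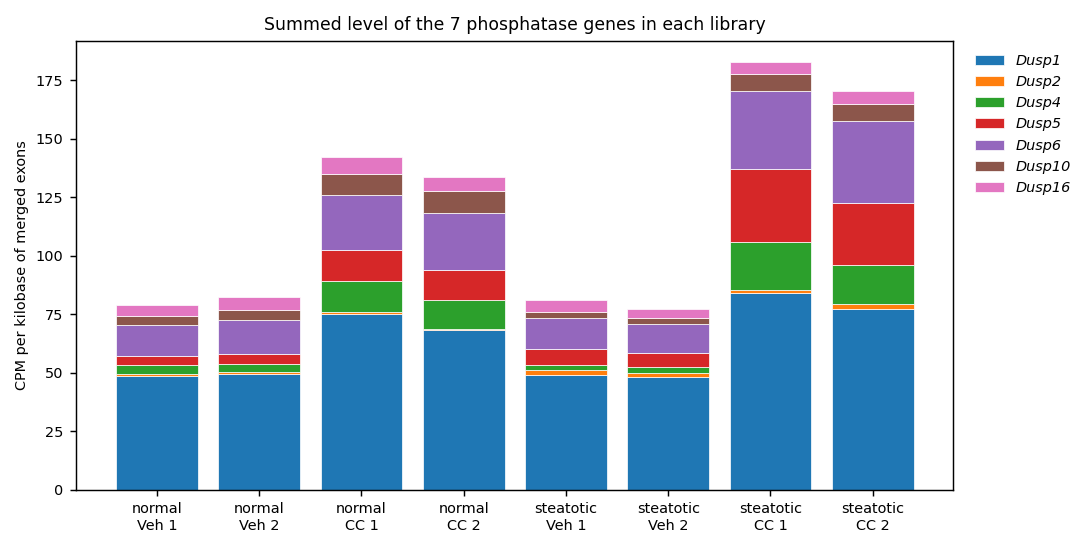
Summed level of the 7 phosphatase genes in each of the 8 libraries, in CPM per kilobase of merged exons (linear axis from 0), with 1 colour per gene. The 4 Veh bars lie between 77.1 and 82.2, the CC bars labelled normal at 142.1 and 133.6 and those labelled steatotic at 182.8 and 170.4.

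Lists of related genes are read against the shares of all tested genes that rose and fell, which were 6.27% and 5.54% with the label normal and 12.0% and 10.9% with the label steatotic. Of the 6 tested relatives (*Dusp7*, *Dusp8*, *Dusp9*, *Spry4*, *Spred2* and *Spred3*), 1 rose with CC under the label normal, and 2 rose and 1 fell under the label steatotic, with median log2 fold changes of 0.12 and 0.00. *Spred2* rose by 0.28 (SE 0.0572, edgeR adjusted p = 0.0202) and 0.32 (SE 0.0573, edgeR adjusted p = 0.00548). *Dusp8*, which acts on JNK and p38, rose with the label steatotic by 1.14 (edgeR adjusted p = 0.0203) and *Dusp7*, an ERK phosphatase, fell there by 0.31 on the log2 scale (edgeR adjusted p = 0.0121). Of 10 tested atypical *Dusp* genes, which lack the domain that binds MAPKs, 2 rose under each label and 1 fell under the label steatotic. *Dusp3* rose by 0.26 and 0.43 (edgeR adjusted p = 0.0170 and 0.000726) and *Dusp22* fell by 0.43 on the log2 scale (edgeR adjusted p = 0.00636). *Dusp13* rose from 1.10 and 1.57 CPM to 3.67 and 3.48 CPM with the label normal, and from 0.176 and 0.109 CPM, at or below the floor of 3 fragments, to 2.61 and 2.01 CPM with the label steatotic.

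Upstream of the kinases, 4 of 12 tested ligands rose with CC and 1 fell with the label normal, and 5 rose and 1 fell with the label steatotic. *Hbegf*, a ligand of the epidermal growth factor receptor, rose by 1.95 on the log2 scale (SE of 0.137, edgeR adjusted p = 0.000154) and 2.64 (SE 0.141, edgeR adjusted p = 1.48e-05). *Vegfa* rose by 1.51 and 1.74, and *Hgf*, hepatocyte growth factor, fell by 0.61 and by 1.10 on the log2 scale (edgeR adjusted p = 0.0147 and 0.000401). Of 14 tested receptors, 3 rose and 1 fell with the label normal, and 4 rose and 1 fell with the label steatotic. *Met*, the receptor of *Hgf*, rose by 1.06 and 1.56 (edgeR adjusted p = 3.03e-05 and 2.03e-06), *Csf2rb* by 1.06 and 1.03 and *Fgfr1* by 0.72 and 1.72. *Csf1r*, the receptor that macrophages need for survival, fell by 0.46 and by 0.50 on the log2 scale (edgeR adjusted p = 0.00495 and 0.00158).

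Of 17 genes of the ERK cascade, 1 rose and 1 fell with the label normal, and 3 rose and 1 fell with the label steatotic, with medians of 0.07 and 0.00, and the counts with the label normal are near the share of all genes. *Map2k1*, which encodes MEK1, rose by 0.18 and 0.23 (edgeR adjusted p = 0.0259 and 0.00587), *Ksr1* and *Map2k2* by 0.49 and 0.23 with the label steatotic, and *Rps6ka1* fell by 0.45 and by 0.72 on the log2 scale. Of 19 genes of the p38 and JNK cascades, 1 rose and 2 fell with the label normal, and 3 rose and 5 fell with the label steatotic, with medians of -0.02 and -0.04. *Mapkapk2*, a kinase activated by p38, rose by 0.18 and 0.34, and *Map3k5* fell by 0.64 and by 0.45 on the log2 scale. *Map3k3* fell by 0.25 and by 0.31 on the log2 scale. With the label steatotic *Map2k6*, a kinase of p38, rose by 1.83 and *Map3k8* fell by 0.52 on the log2 scale. The list of the ERK cascade holds adaptor, Ras, RAF, MEK, ERK and RSK genes, so *Map3k8* was not counted there. Whether its fall bears on ERK was not tested. Among 11 tested other brakes of the pathway, 3 rose under each label, led by *Ptpn7*, a tyrosine phosphatase of ERK and p38 (1.31 and 1.23), and *Errfi1*, an inhibitor of the epidermal growth factor receptor (0.47 and 0.86).

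Of 17 tested genes that ERK signalling is known to induce, 7 rose with CC under the label normal, and 10 rose and 2 fell under the label steatotic, with medians of 0.35 and 0.53. *Fosl1* rose by 2.36 and 2.60 (SE 0.128 and 0.134, edgeR adjusted p = 5.74e-05 and 1.25e-05). *Egr3* rose by 2.02 and 2.96 (edgeR adjusted p = 0.0139 and 0.00117), and *Egr2* by 2.80 with the label steatotic (edgeR adjusted p = 0.0191). *Egr1*, named because the study proposes a part for this factor, rose by 1.59 and 2.36 (SE 0.0678 and 0.0698, edgeR adjusted p = 2.92e-05 and 2.00e-06). It was lower at Veh with the label steatotic, with a log2 fold change of -0.83 (SE of 0.0676, edgeR adjusted p = 8.15e-05), as *Dusp4* was, but unlike *Dusp4* it had a log2 fold change of -0.07 between the labels with CC (95% interval from -0.22 to 0.09). *Etv5* and *Ccnd1* fell with CC under the label steatotic by 0.94 and by 0.80 on the log2 scale (edgeR adjusted p = 2.21e-05 and 0.00109).

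**Figure D5:**
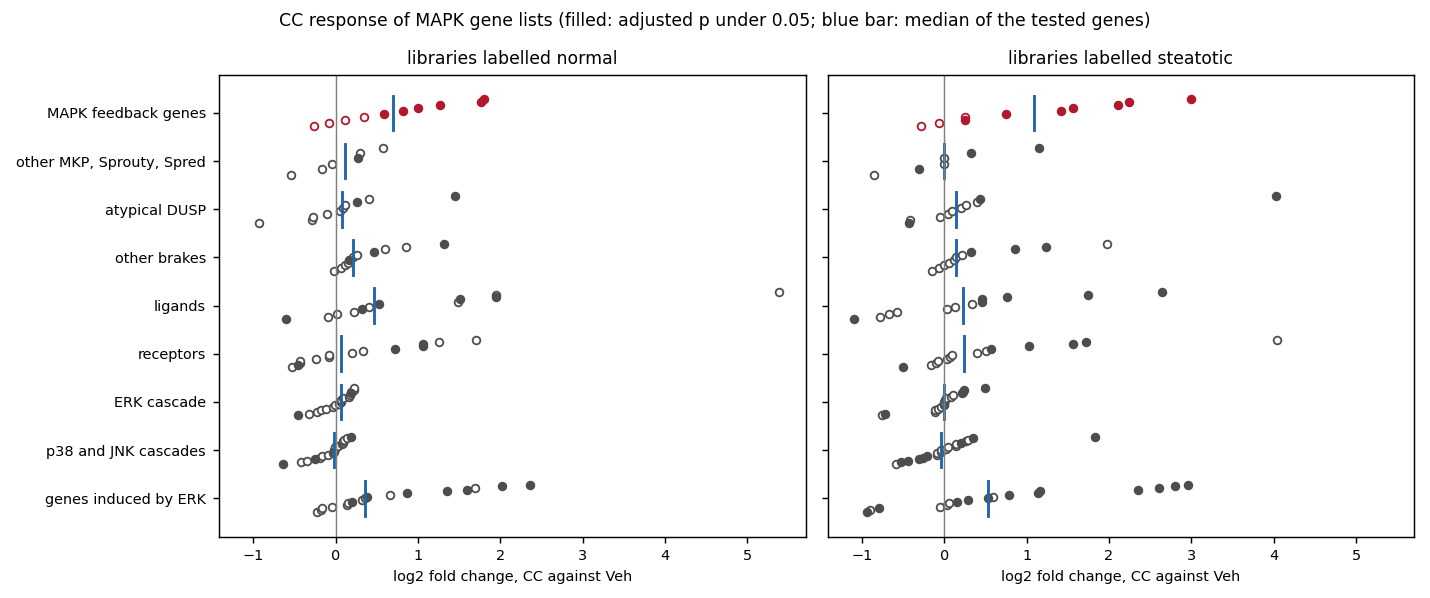
Log2 fold changes with CC against Veh of the tested genes of 9 lists (1 point per gene, the 10 MAPK feedback genes in red), in the libraries labelled normal (left) and steatotic (right), filled where the edgeR adjusted p was under 0.05, with a blue bar at the median. The medians of the feedback genes, 0.70 and 1.08, lie to the right of those of the cascade lists, which are between -0.04 and 0.07.

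Across the 8 libraries, *Dusp6* and *Spry2* had the highest Pearson correlation of log2 CPM among pairs of the 10 genes (r = 0.988), and *Dusp1*, *Dusp4*, *Dusp5*, *Dusp6* and *Spry2* all had pairwise correlations of at least 0.886. The libraries share the contrast of CC with Veh, so these values describe the groups and are not tests. Among 8579 other protein-coding genes with a mean log2 CPM of at least 3, the pattern of *Dusp4* was most like that of *Sgk1* (r = 0.996), *Arrdc4* (r = 0.995) and *Tubb6* (r = 0.993). *Sgk1* was at 131.1 and 131.7 CPM in normal with Veh and 101.1 and 102.6 CPM in steatotic with Veh, and at 261.8 and 271.4 CPM and 304.7 and 282.2 CPM with CC. Its order of groups was thus that of *Dusp4*. The pattern of *Dusp6* was most like those of *Ndst1* (r = 0.997), *Sdc1* (r = 0.994) and *Mtm1* (r = 0.993).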

How the data were processed

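Poly(A) RNA of hepatic macrophages was sequenced with directional libraries and paired-end reads. The authors used fastp for trimming, HISAT2 for alignment (mm10) and StringTie for quantification (versions not given in the sources used here) and deposited estimated counts per gene (expected counts, whole numbers, not normalized). Between 35.0% and 36.5% of values from 1 to 20 were multiples of 4, against 24.0% to 27.0% of values from 100 to 1000, so 1 fragment was taken as about 4 counts in the floors.

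Genes that reached 0.5 CPM in 1 or more libraries were tested with edgeR 4.0.16 in R 4.3.3 (glmQLFit with robust estimation, glmQLFTest, TMM factors from 0.981 to 1.03) in 1 model with 4 group means, with Benjamini-Hochberg adjustment over all 15202 genes and a threshold of 0.05. The common biological coefficient of variation was 0.171. SEs and 95% intervals were taken from the F statistic and the coefficients without a prior count. Exon lengths came from GENCODE M21 (GRCm38), which holds 15181 of the tested genes, and promoters from RefSeq. The code of the fit was run on independent libraries simulated from its own estimates of spread. This cannot show that its p-values hold for the present libraries, and no result here rests on it. Genes outside the 10 were named by rank of the log2 fold change with CC among genes past the threshold, up to 2 in each direction per list and label, and for *Dusp4* and *Dusp6* by correlation. The 10 genes, the lists and the tests were chosen with earlier results of these data known, and the motifs after the values were seen. Alternatives were DESeq2 1.42.0, its size factors, library size only, other filters, a block for the replicate number, a fit to only the 4 libraries compared, counts divided by 4, and each library left out, where the lone library of a group is assumed to vary like the others.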

Additional observations from a re-analysis of the deposited data

Results flagged for a closer look

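The responses to CC of these genes differed between the labels by the test of the difference itself (edgeR quasi-likelihood test, adjusted p under 0.05). *Dusp4* and *Dusp6* responded more with the label steatotic, by 1.20 and 0.60 on the log2 scale. Among the genes named from the lists, the response was larger with the label steatotic for *Fgfr1* by 1.00 (edgeR adjusted p = 0.00275), for *Egr1* by 0.76 (edgeR adjusted p = 0.00659), for *Met* by 0.50 (edgeR adjusted p = 0.00824) and for *Map2k6* by 2.18 (edgeR adjusted p = 0.0146). *Dusp13* had a difference of 2.57 (edgeR adjusted p = 0.0235), which rests on a Veh group at or below the floor. The differences were negative for *Etv5* (-0.76, edgeR adjusted p = 0.00382) and *Map3k8* (-0.50, edgeR adjusted p = 0.0258). Among the cell type markers, 6 differed. The neutrophil markers *Mmp8* and *S100a8* had a larger response with the label steatotic, by 0.67 and 1.31 (edgeR adjusted p = 0.00412 and 0.0101). *Csf3r* had a difference of 0.13 that did not pass the test, and *Ly6g*, *S100a9* and *Retnlg* were below the filter. The differences were negative for *Pecam1* (endothelial, -1.20, edgeR adjusted p = 0.00368), *Trf* (hepatocyte, -0.73, edgeR adjusted p = 0.0223), *Vsig4* (Kupffer cell, -0.50, edgeR adjusted p = 0.0367) and *Adgre1* (macrophage, -0.30, edgeR adjusted p = 0.0205). Groups of 2 libraries are too small for a search for outlying libraries.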

How the results depend on the processing

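The counts of genes that rose with CC moved between 5 and 6 with the label normal and between 6 and 8 with the label steatotic over all alternatives. With 1 library left out, the number with a larger response under the label steatotic lay between 1 and 2, and with CC the numbers higher and lower with the label steatotic lay between 4 and 6 (7 with all libraries) and between 0 and 1. No other test, scaling, filter or unit that was tried moved any of these counts by more than 1.5 times.

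Signs changed only for values that had not passed the test. For *Spry1* the difference between responses (0.00) was -0.0018 with DESeq2 and with its size factors in edgeR, -0.0074 with the replicate block and -0.0956 with counts divided by 4, which also gave -0.0389 for its difference between labels with CC. With library size only, *Dusp1* was at -0.012 between the labels at Veh. With 1 library left out, *Spry1* lay from -0.305 to 0.1838 and from -0.2678 to 0.0992 for CC under the labels normal and steatotic, from -0.2616 to 0.2341 for the difference between responses, and from -0.1203 to 0.3584 at Veh and from -0.0956 to 0.3337 with CC between the labels. At Veh, *Dusp6* lay from -0.1286 to 0.0044 between the labels, *Dusp16* from -0.4219 to 0.0655 and *Spry2* from -0.5388 to 0.0202. For the difference between responses, *Dusp2* lay from -0.3662 to 0.2451 and *Dusp16* from -0.3164 to 0.1638. These ranges are log2 fold changes with 1 library left out at a time.

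Differences between replicates 1 and 2 correlated between -0.0323 and 0.0429 across groups over 9021 genes, so the replicate numbers showed no pairing over genes as a whole. This cannot exclude a pairing that touches few genes, and *Spry1* was higher in replicate 2 than in replicate 1 of each group. With the replicate block, 6 and 7 genes rose with CC, 2 differed between responses, and no call on the 10 genes changed. Depth limits statements on *Spry1*, *Dusp2* and *Spry2*, the genes of lowest level.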
